A study of Mus musculus with 3 samples.

Results

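Homeostatic non-dividing microglia were 1194 of the 14192 cells profiled by droplet RNA sequencing from mouse prefrontal cortex, with 292, 380 and 522 cells in libraries 1, 2 and 3. They were selected on measured values: at least 2 of P2ry12, Tmem119 and Csf1r above 0, at most 1 of the division genes Mki67, Top2a, Cenpf and Birc5, not both Spp1 and Gpnmb, at most 1 of the border macrophage genes Pf4, Lyve1 and Mrc1, and at most 1 of Aqp4, Pdgfra and Cldn5. All 3 libraries came from a single group, mice of both sexes at postnatal day 6 that inhaled about 3% sevoflurane, a volatile anaesthetic, and were killed on that day. The labels describe tissue frozen on dry ice, Trizol extraction and 10x Chromium libraries. They name no strain, no unexposed group and no pooling scheme, so every comparison here is between cells within exposed cortex. The labels do not say that the libraries came from separate animals, and p-values then measure only the spread between libraries, which may be technical.

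Microglia are the resident macrophages of brain tissue. They enter the embryonic brain from the yolk sac, depend on signalling through the receptor Csf1r, survey the tissue through purine receptors such as P2ry12, and clear dying cells and synaptic material. Ccl3 and Ccl4 encode secreted chemokines, and Ccl3 acts through the receptor Ccr1 among others. Both genes are known to be switched on in macrophages by inflammatory stimuli.

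The deposited values were natural logs of depth-corrected counts, called corrected counts here, and the sequencing depth before correction is unknown. Corrected counts summed to between 24612481 and 29581504 a library. Members had a median of 5073.5 corrected counts and 1815.5 detected genes a cell, against 5835.5 and 2598 in all other cells. A level is given as CPM, counts per 1000000: each cell was scaled to that total and cells were averaged within a library. Between libraries, 90 cell barcodes recurred, in 180 cells. Scrublet called 46 members as suspected doublets, and they were kept in the main analysis.

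Of 1922 cells with at least 2 of the 3 markers, 728 were set aside by 1 or more limits, 542 of them for division genes, 125 for border macrophage genes, 89 for Spp1 with Gpnmb and 44 for Aqp4, Pdgfra and Cldn5. All 3 markers were above 0 in 927 members and exactly 2 in 267, while 778 cells within every other limit had 1 marker and stayed outside. The cells just inside the threshold, with 2 markers, held the complement gene C1qa at 3101 ± 320 CPM (SD, n = 3 libraries), and the cells just outside, with 1 marker, at 120 ± 41.8 CPM. Members made up 6.12%, 7.40% and 12.2% of cells in libraries 1, 2 and 3, a mean of 8.57 ± 3.20% (SD, n = 3), with exact Clopper-Pearson 95% intervals of 5.45 to 6.83%, 6.70 to 8.15% and 11.2 to 13.2% that cover counting error only. A smaller share in a dissociated tissue cannot be told apart from fewer cells recovered.

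The label of microglia held against markers that the rule did not use. C1qa was detected in 97.7% of members, the fractalkine receptor Cx3cr1 in 90.6%, and Trem2, a lipid-sensing receptor, in 93.1% (means of 3 libraries). Sall1, the transcription factor that marks microglia among macrophages, stood at 89.4, 81.6 and 71.6 CPM in libraries 1, 2 and 3. All 20 listed microglia markers were detected and summed to 31355, 30301 and 33162 CPM in members, against 345, 646 and 517 CPM in cells outside the 4 macrophage and microglia classes. The sum did not single out members among those classes. It was 29800, 27482 and 27671 CPM in dividing microglia and 37336, 38396 and 32386 CPM in cells with Spp1 and Gpnmb. Border macrophages had 26650, 26845 and 15746 CPM. The monocyte receptor Ccr2 stayed under 1 CPM, and Cd163, a border macrophage receptor, was at 0 in every library. Other genes of these lists were present, and the 10 monocyte genes summed to 76.6, 79.0 and 57.8 CPM. The 11 border macrophage genes outside the rule summed to 8647, 9609 and 8717 CPM, of which Apoe made up 8323, 9318 and 8385 CPM. In border macrophages the 11 genes summed to 48693, 42976 and 36263 CPM. Of the members, 631 had 1 of Pf4, Lyve1 and Mrc1 above 0. RNA of other cells was present: erythroid markers summed to 5349, 12165 and 4531 CPM, astrocyte markers summed to 1394, 1976 and 1585 CPM and oligodendrocyte precursor markers to 456, 671 and 427 CPM in members.

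Ccl3 or Ccl4 was above 0 in 435 members, 38.4%, 35.3% and 36.2% of those in libraries 1, 2 and 3, a mean of 36.6 ± 1.59% (SD, n = 3). The exact 95% intervals were 32.8 to 44.2%, 30.5 to 40.3% and 32.1 to 40.5%, so the libraries overlapped widely. In cells with none of the 3 markers the share was 1.13%, 1.87% and 1.26%, although those cells had more detected genes. No limit kept border macrophages or blood cells out of that set, so its share is not a pure background. Ccl3 alone was found in 240 members, Ccl4 alone in 78 and both in 117. After every cell was thinned to 4000 corrected counts the share was 32.4%, 32.8% and 32.1%. Members with all 3 markers were positive in 41.2%, 37.2% and 38.7% of cases, against 27.1%, 29.3% and 27.6% of members with exactly 2 markers.

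**Figure D1:**
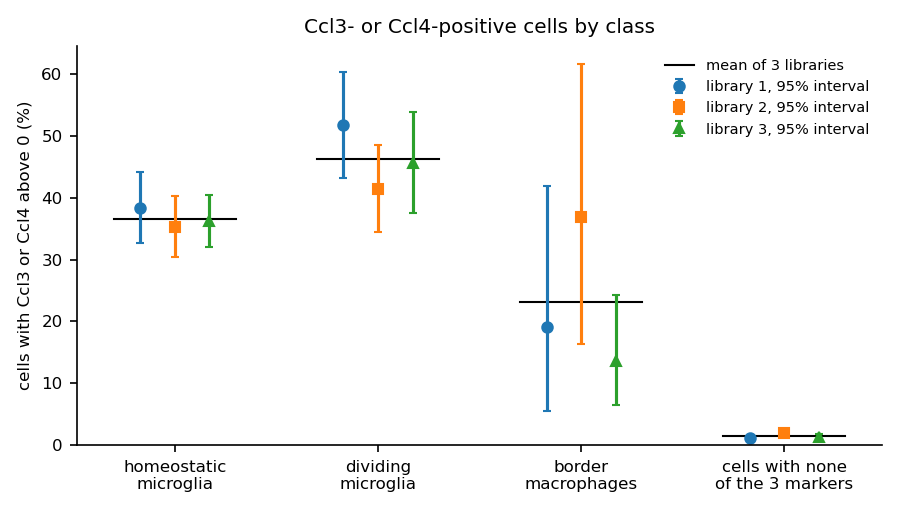
Share of cells with Ccl3 or Ccl4 above 0 (vertical axis, %) in homeostatic microglia, dividing microglia, border macrophages and cells with none of the 3 microglia markers. Points are libraries with exact 95% binomial intervals and lines are means of 3 libraries. Homeostatic microglia sit between 35.3 and 38.4% in all 3 libraries and cells without markers under 2%.

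Ccl4 was found in a larger share of Ccl3-positive than of Ccl3-negative members in each library. In library 1, Ccl4 was above 0 in 40.2% of Ccl3-positive members and in 10.0% of Ccl3-negative members; library 2 gave 34.2% and 7.52%, and library 3 gave 27.2% and 10.2%. The odds ratios were 6.05, 6.40 and 3.27, given as a description. Their level was uneven among cells: Ccl3 stood at exactly 1 corrected count in 181 of 357 Ccl3-positive members, and reached 40, 53 and 24 corrected counts in libraries 1, 2 and 3. The 10 cells with most Ccl4 held 59.6%, 68.4% and 57.7% of all Ccl4 counts of the members of their library, and the 10 with most Ccl3 held 45.6%, 48.4% and 29.9% of its counts. Members carried 56.9%, 52.5% and 64.7% of all Ccl3 counts of the whole table and 65.8%, 63.1% and 64.9% of all Ccl4 counts.

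Both genes lie in a chemokine cluster on chromosome 11. In GENCODE vM21 on GRCm38, Ccl3 spans chr11:83647844-83649355 on the minus strand and Ccl4 spans chr11:83662584-83664683 on the plus strand, 13228 bases apart. Of the genes described below, Ccl12 spans chr11:82101845-82103400 on the plus strand and Ccl9 chr11:83572919-83578636 on the minus strand. The 250 bases before the annotated start are shown for Ccl3 and for 3 genes that were higher in Ccl-positive cells, Ccl12, Ccl9 and C3ar1. Of the higher genes examined, these 3 were those whose windows held a match to the motifs below. The sequences were taken from RefSeq on GRCm38.p6, whose annotated starts can differ by some bases from those of GENCODE. Capitals mark every match, on either strand, to 4 motifs: AP-1 (TGANTCA), the cyclic AMP response element (TGACGTCA), the kappa-B consensus and the TATA box (TATAAA).
Ccl3, chr11:83649379-83649628, strand -: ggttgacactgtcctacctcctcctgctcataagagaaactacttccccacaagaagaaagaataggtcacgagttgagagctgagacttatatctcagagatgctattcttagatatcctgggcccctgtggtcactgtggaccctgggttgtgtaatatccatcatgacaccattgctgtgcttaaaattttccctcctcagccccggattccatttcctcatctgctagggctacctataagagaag
Ccl12, chr11:82101595-82101844, strand +: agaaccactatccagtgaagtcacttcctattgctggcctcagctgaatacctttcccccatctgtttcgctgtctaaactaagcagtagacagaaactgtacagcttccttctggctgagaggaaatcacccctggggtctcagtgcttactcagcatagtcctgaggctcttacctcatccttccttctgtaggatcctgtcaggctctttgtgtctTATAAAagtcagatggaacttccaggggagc
Ccl9, chr11:83578637-83578886, strand -: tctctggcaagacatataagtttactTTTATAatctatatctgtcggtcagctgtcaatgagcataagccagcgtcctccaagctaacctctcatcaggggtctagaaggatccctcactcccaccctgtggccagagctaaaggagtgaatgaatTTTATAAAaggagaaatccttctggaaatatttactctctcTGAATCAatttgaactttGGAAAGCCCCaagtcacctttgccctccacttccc
C3ar1, chr6:122856158-122856407, strand -: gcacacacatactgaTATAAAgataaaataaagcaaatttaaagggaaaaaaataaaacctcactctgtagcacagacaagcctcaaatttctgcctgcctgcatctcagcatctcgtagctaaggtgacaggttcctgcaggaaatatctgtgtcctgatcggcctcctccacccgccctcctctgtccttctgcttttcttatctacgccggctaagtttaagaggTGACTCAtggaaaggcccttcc
The window of Ccl3 held no match, and neither did those of Ccl6 and Atf3, which were also higher in Ccl-positive cells and are not printed. Ccl12 had a TATA box that began at position -31 from the start. Ccl9 had 3 TATA box matches, of which 2 overlapped on opposite strands, an AP-1 match at -53 and a kappa-B match at -35. C3ar1 had an AP-1 match at -22 and a TATA box match at -235. Of 32851 RefSeq windows of this length, 6.75% held an AP-1 match, 1.55% a cyclic AMP response element, 7.25% a kappa-B match and 12.4% a TATA box. A match describes letters, not a site in use. Ccl4 was not matched in the promoter table.

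Ccl-positive members were next set against Ccl-negative members of the same libraries, with 112, 134 and 189 cells against 180, 246 and 333. The 2 sets were split on Ccl3 and Ccl4 in the same cells, so those genes were left out of the counts and the other genes were tested with limma on log2(mean + 10 CPM), library as a block, at a Benjamini-Hochberg adjusted p under 0.05. Of 7893 genes tested, 357 passed (4.52%), 108 higher (1.37%) and 249 lower (3.15%), and the median gene stood at a log2 fold of -0.01. Among listed genes, 7 of 19 immediate early genes, 5 of 7 complement genes, 5 of 13 chemokines and cytokines and 13 of 25 phagocytic and lysosomal genes were higher in Ccl-positive microglia, and 7 of 8 oligodendrocyte precursor markers and 6 of 8 neuronal markers were lower. Without library 3, 227 genes passed in all. The split into higher and lower calls was 131 and 115 among genes that averaged 50 CPM or more, and 278 and 197 with means of the deposited log values.

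Among early response genes, Atf3, a stress-induced transcription factor, had 66.3, 49.9 and 37.1 CPM in Ccl-positive cells of libraries 1, 2 and 3, against 25.2, 10.2 and 13.8 CPM in Ccl-negative cells. Every positive value lay above every negative one. The difference was 1.22 ± 0.18 on the log2 scale (SE, n = 3 libraries, adjusted p = 0.000994), and Atf3 passed in all 15 alternative settings that tested it. Ier3, an early gene that acts on cell survival, averaged 81.3 ± 14.2 CPM in Ccl-positive cells and 42.3 ± 7.37 CPM in Ccl-negative cells (SD, n = 3 each). Of 19 listed immediate early genes tested, 7 were higher and 0 lower, against 1.37% of all genes higher, with a median log2 fold of 0.49. The 12 tested heat shock proteins had a median of -0.02 and 0 of them passed in limma, with 1199 of all 7893 genes at an unadjusted p under 0.05.

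Complement calls were receptors and C1q chains. C5ar1, the receptor for the complement fragment C5a, had 168, 166 and 86.0 CPM in Ccl-positive cells, against 75.2, 68.3 and 42.9 CPM in Ccl-negative cells, with library 3 the lowest in both sets. Its log2 difference was 1.03 ± 0.13 (SE, adjusted p = 0.000314). C3ar1, the receptor for C3a, had 250, 245 and 229 CPM in Ccl-positive cells, against 140, 121 and 124 CPM in Ccl-negative cells, without overlap, a log2 difference of 0.87 ± 0.10 (adjusted p = 0.000292). In all, 5 of 7 tested complement genes passed and each was higher: C5ar1, C3ar1, C1qa, C1qb and C1qc.

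Of the listed chemokines and cytokines, 13 were tested beside Ccl3 and Ccl4, and 5 were higher and 0 lower. Ccl12, a ligand of the monocyte receptor Ccr2, had 259, 325 and 250 CPM in Ccl-positive cells, against 162, 163 and 143 CPM in Ccl-negative cells (log2 difference 0.79 ± 0.10, adjusted p = 0.000449). Ccl2, another Ccr2 ligand, was far weaker, at 24.3, 45.0 and 23.5 CPM in Ccl-positive cells against 10.1, 13.9 and 6.19 CPM in Ccl-negative cells, with no overlap (adjusted p = 0.00568). Ccl6 had 267, 190 and 138 CPM in Ccl-positive cells, against 124, 111 and 98.3 CPM in Ccl-negative cells, without overlap. Ccl9 averaged 173 ± 58.4 CPM in Ccl-positive cells and 107 ± 27.8 CPM in Ccl-negative cells, with overlap. Both are ligands of Ccr1. The cytokine Il1a averaged 34.7 ± 6.53 CPM in Ccl-positive cells and 15.3 ± 1.29 CPM in Ccl-negative cells (adjusted p = 0.0181). Tnf did not pass: 8.92, 17.5 and 25.5 CPM stood in Ccl-positive cells against 15.3, 9.08 and 9.61 CPM in Ccl-negative cells, adjusted p = 0.59.

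In the NF-kappa-B list, 3 of 14 tested genes were higher and 0 lower: Cd83, a surface protein of activated myeloid cells, Bcl2a1b, which opposes apoptosis, and the inhibitor Nfkbia. Cd83 had 130, 149 and 132 CPM in Ccl-positive cells, against 61.9, 70.2 and 61.7 CPM in Ccl-negative cells. The ranges were well apart, and the log2 difference was 0.98 ± 0.12 (SE, adjusted p = 0.000314). The interferon gene Isg15 averaged 19.3 ± 3.76 CPM in Ccl-positive cells and 2.42 ± 1.18 CPM in Ccl-negative cells, a log2 difference of 1.23 (adjusted p = 0.0024), and only 2 of 6 interferon response genes passed. Of the 4 tested chemokine receptors and the 6 tested purinergic genes, 0 passed. Ccr1, a receptor of Ccl3, stood at 27.7, 54.5 and 56.4 CPM over all members of libraries 1, 2 and 3.

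Phagocytic and lysosomal genes gave the longest list of calls, with 13 of 25 higher and 1 lower, the fatty acid binding protein Fabp5, and a median log2 fold of 0.42. Plin2, which coats lipid droplets, had 168, 207 and 136 CPM in Ccl-positive cells, against 104, 92.0 and 78.4 CPM in Ccl-negative cells (log2 difference 0.82 ± 0.12, adjusted p = 0.00135). Lpl, a lipoprotein lipase, had 462, 380 and 258 CPM in Ccl-positive cells, against 220, 239 and 202 CPM in Ccl-negative cells (adjusted p = 0.00354). Abcg1, a cholesterol exporter outside the lists, averaged 58.9 ± 2.68 CPM in Ccl-positive cells and 21.5 ± 5.38 CPM in Ccl-negative cells, a log2 difference of 1.14 ± 0.17 (adjusted p = 0.00111). Microglia markers followed at a smaller size, with 8 of 20 higher and a median of 0.20; Trem2 averaged 1554 ± 91.9 CPM in Ccl-positive cells and 1229 ± 107 CPM in Ccl-negative cells.

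**Figure D2:**
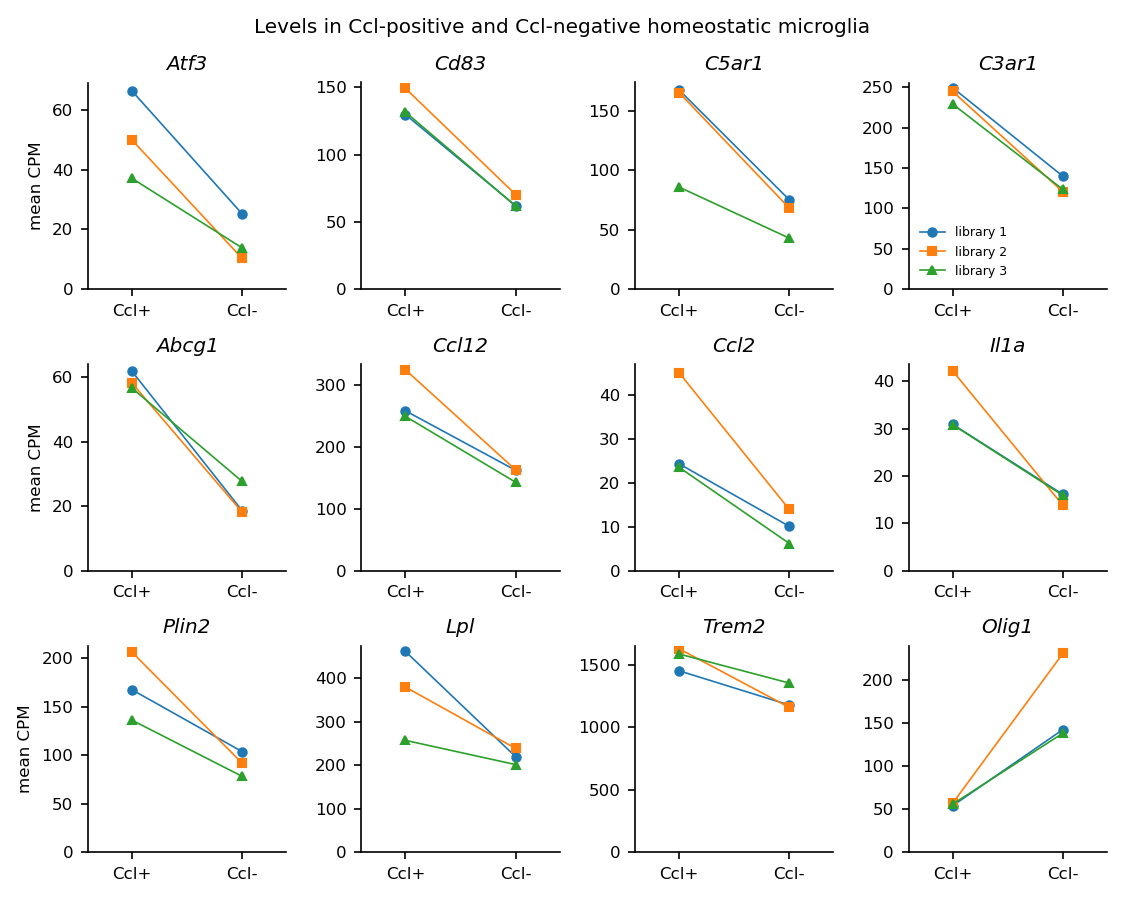
Mean level (vertical axis, CPM) of 12 genes in Ccl-positive (left) and Ccl-negative (right) homeostatic microglia, with 1 line a library. Atf3, Cd83, C5ar1, C3ar1, Abcg1, Ccl12, Ccl2, Il1a, Plin2, Lpl and Trem2 are higher in Ccl-positive cells of every library, and the precursor marker Olig1 is lower in every library.

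Among the 249 lower genes were 19 listed markers of precursors, neurons, astrocytes and vessel cells. Olig1, a transcription factor of oligodendrocyte precursors, had 54.2, 57.1 and 56.1 CPM in Ccl-positive cells, against 143, 231 and 139 CPM in Ccl-negative cells (log2 difference -1.42 ± 0.14, adjusted p = 6.77e-05). Ncam1, a neural adhesion molecule, had 12.2, 28.8 and 29.0 CPM in Ccl-positive cells, against 115, 91.4 and 121 CPM in Ccl-negative cells, and was the largest negative difference, -1.88 ± 0.19. Of the listed markers of other cells, 7 of 8 for oligodendrocyte precursors, 6 of 8 for neuroblasts and neurons, 3 of 8 for astrocytes and 3 of 7 for endothelial and mural cells were lower in Ccl-positive cells, none was higher, and 3 genes of the selection rule were among the 357. Precursor markers summed to 219, 316 and 219 CPM in Ccl-positive cells, against 604, 864 and 544 CPM in Ccl-negative cells, and the 20 microglia markers to 34944, 33563 and 35696 CPM against 29122, 28524 and 31724 CPM. Detected genes a cell had medians of 1984.5, 1871 and 1855 in Ccl-positive cells and 1938.5, 1808.5 and 1641 in Ccl-negative cells. The part of this RNA in the other calls was not tested directly, and the counts in members with less of it follow.

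Among the 927 members with all 3 markers, 32 genes passed in place of 357, 22 higher and 10 lower, and 28 of the 32 had passed before. In those cells 0 of 20 microglia markers, 0 of 8 astrocyte markers, 0 of 5 precursor markers and 0 of 6 neuronal markers passed, while 3 of 5 erythroid markers were lower, with 525 of 7684 genes at an unadjusted p under 0.05. Of the other lists, 5 of 19 immediate early genes, 3 of 15 NF-kappa-B genes, C5ar1 and C3ar1 of the complement list, 7 of 24 phagocytic and lysosomal genes, and Ccl12 of 13 chemokines and cytokines were higher. The log2 differences there were 1.16 for Atf3 (adjusted p = 0.00336), 1.21 for Abcg1 (adjusted p = 0.0016), 0.93 for C5ar1 (adjusted p = 0.000294), 0.81 for Cd83 (adjusted p = 0.00221), 0.81 for Ccl12 (adjusted p = 0.000128) and 0.61 for C3ar1 (adjusted p = 0.00803). Ccl2, Il1a, Ccl6, Ccl9, Trem2 and Olig1 did not pass there, at adjusted p-values of 0.375, 0.239, 0.0825, 0.199, 0.47 and 0.484.

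In a stricter setting, added after these values were seen, only members at or below their library's median number of detected markers of other cells were kept: 62, 82 and 138 Ccl-positive cells of 160, 204 and 328. There 16 genes passed, 15 higher and 1 lower, with 516 of 7347 at an unadjusted p under 0.05 and 14 shared with the 357. Of the phagocytic and lysosomal genes, 4 of 24 were higher in that setting. Plin2 (log2 difference 0.65, adjusted p = 0.123) and Lpl (0.46, adjusted p = 0.179) did not pass. Atf3 (log2 difference 1.46, adjusted p = 0.00295), Ccl12 (0.94, adjusted p = 0.000269), Cd83 (0.87, adjusted p = 0.0119), Ier3 (0.86, adjusted p = 0.0305) and C3ar1 (0.66, adjusted p = 0.0174) passed there, and C5ar1 (0.72, adjusted p = 0.0509) and Abcg1 (0.95, adjusted p = 0.0637) did not. Of 46 named genes past the threshold, 6 passed in every alternative that tested them: Atf3, C3ar1, Ccl12, Cd83, and the neuronal genes Ncam1 and Nsg1, which were lower and too weak to be tested in that stricter setting.

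**Figure D3:**
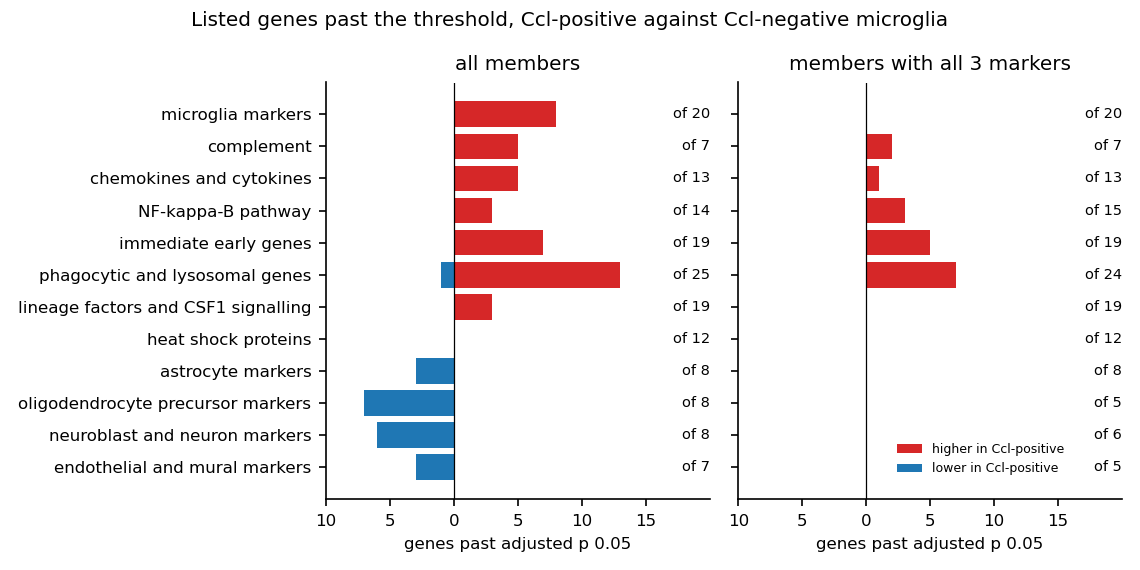
Number of listed genes past an adjusted p of 0.05 (horizontal axis) that were higher (right of 0) or lower (left of 0) in Ccl-positive than in Ccl-negative homeostatic microglia, for all members and for members with all 3 markers, with the number tested at the right. In members with all 3 markers, calls are at 0 for microglia, astrocyte, precursor, neuronal and vascular markers, while 5 immediate early genes and 7 phagocytic and lysosomal genes are still higher.

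Graded by the summed Ccl3 and Ccl4 count of a cell, Atf3 was as low with 1 to 2 counts as with 0. It averaged 16.4 ± 7.79 CPM in members with 0 counts, 17.2 ± 1.23 CPM with 1 to 2 counts and 94.7 ± 28.9 CPM with 3 or more (SD, n = 3 libraries), where each library held 51, 59 and 75 cells. Ccl2 stood at 10.1 ± 3.87, 13.4 ± 10.8 and 54.4 ± 13.4 CPM, and library 2 was already higher with 1 to 2 counts, at 25.8 CPM. C3ar1 stood at 128 ± 10.4, 211 ± 41.4 and 283 ± 44.0 CPM, but in library 1 it was at 258 CPM with 1 to 2 counts and 239.5 CPM with 3 or more. Cd83 was higher at each step in every library, reaching 187, 212 and 153 CPM with 3 or more. The precursor marker Olig1 ran the other way, at 171 ± 52.4, 68.2 ± 11.0 and 39.8 ± 11.1 CPM. These genes were chosen after their values were seen, and the steps were not tested.

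**Figure D4:**
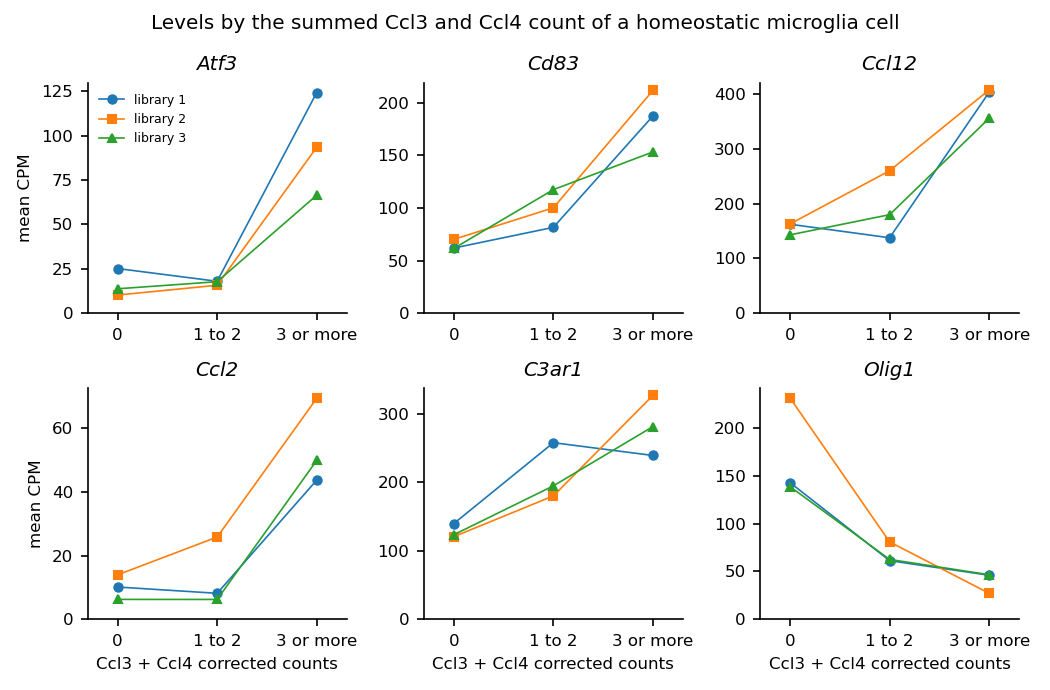
Mean level (vertical axis, CPM) of Atf3, Cd83, Ccl12, Ccl2, C3ar1 and Olig1 by the sum of Ccl3 and Ccl4 corrected counts in a cell (horizontal axis, 0, 1 to 2, 3 or more), with 1 line a library. Atf3 stays under 25.2 CPM below 3 counts and reaches 66.4 to 124 CPM with 3 or more, and Ccl2 reaches 43.7 to 69.4 CPM there.

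After these values were seen, the same split was made in dividing microglia, which share the libraries and not the cells, with 72, 82 and 69 Ccl-positive cells of 139, 198 and 151. Of the 357 genes, 340 had the same sign there, against 63.1% of all 7893 genes, and 175 also passed, against 5.38% of all genes. Of the 108 higher genes, 105 had the same sign and 51 passed. The largest lower calls of the astrocyte, precursor, neuronal and vascular lists were mixed in dividing cells. Slc1a3 (log2 difference -1.60), Gja1 (-1.66), Olig1 (-1.53), Vtn (-2.69) and Rgs5 (-1.58) passed there, while Lhfpl3 (-0.76), Dlx6os1 (-0.49) and Stmn2 (0.06) did not. The part of RNA of other cells in the 175 genes was not tested. Ccl12 differed by 1.22 (adjusted p = 3.78e-05), Cd83 by 1.00 (adjusted p = 7.24e-05), Atf3 by 0.95 (adjusted p = 0.0287) and Abcg1 by 0.99 (adjusted p = 0.00695) on the log2 scale. Ccl2 (0.81, adjusted p = 0.0765), Il1a (0.60, adjusted p = 0.121), C5ar1 (0.59, adjusted p = 0.0622) and Plin2 (0.48, adjusted p = 0.083) did not pass there, nor did Isg15, whose difference was -0.11 (adjusted p = 0.866). Tnf, which did not pass in homeostatic cells, differed by 1.08 (adjusted p = 0.00566). The difference between the 2 differences passed for 0 genes in limma, with 397 at an unadjusted p under 0.05, which does not show that the 2 classes are alike.

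Homeostatic microglia had a lower Ccl-positive share than dividing microglia in each library. The share was 38.4%, 35.3% and 36.2% in homeostatic microglia, against 51.8%, 41.4% and 45.7% in dividing microglia, lower by 9.69 ± 3.65 percentage points (SD, n = 3) and in 3 of 3 libraries. The exact paired permutation test, two-sided, gave p = 0.25, the smallest that 3 pairs allow. With a cutoff of at least 3 corrected counts of either gene the difference was -1.29 ± 1.53 points, lower in 2 of 3 libraries. The mean level did not follow the share: Ccl3 stood at 211, 200 and 145 CPM in homeostatic cells, against 196, 159 and 155 CPM in dividing cells (adjusted p = 0.917), and Ccl4 at 166, 194 and 117 CPM against 132, 129 and 126 CPM (adjusted p = 0.877), with overlap for both.

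Across genes, homeostatic minus dividing cells gave 401 of 8316 genes past the threshold (4.82%), 38 higher (0.457%) and 363 lower (4.37%). The fit also held border macrophages of libraries 1 and 3, and all classes in it shared the spread of each gene. Cell cycle genes outside the rule are given as a description, since the classes were separated on genes of that kind: 22 of 30 were lower, Ube2c for example at 14.2, 16.5 and 20.9 CPM in homeostatic cells against 394, 408 and 409 CPM in dividing cells. Phagocytic and lysosomal genes were higher in homeostatic cells in 8 of 26 cases and lower in 0, with a median log2 fold of 0.37 against -0.04 for all genes. Higher calls over all genes depended on the setting. They numbered 5 without library 2 (4 shared with the 38), 8 with means of the deposited log values and 10 with a minimum of 10 cells. With all 3 markers required there were 42. Markers of other cells did not move as 1 set. Medians were -0.04 for astrocyte, -0.1 for erythroid, 0.18 for precursor and 0.13 for endothelial and mural markers, with 0 calls. Neuronal RNA moved the same way as the phagocytic and lysosomal genes: all 8 tested neuroblast and neuron markers had a positive log2 fold, with a median of 0.56. Of these Stmn2 passed, at 95.2, 92.0 and 77.8 CPM in homeostatic cells against 49.5, 43.7 and 25.3 CPM in dividing cells (log2 difference 1.02 ± 0.18, adjusted p = 0.014), and the part of this RNA in the other calls was not tested. Cd63, a tetraspanin of late endosomes, had 975, 1001 and 936 CPM in homeostatic cells, against 508, 572 and 603 CPM in dividing cells (log2 difference 0.78 ± 0.09, adjusted p = 0.00108), and it passed in all 13 alternatives. Abca1, a cholesterol exporter, had 98.3, 103 and 96.1 CPM in homeostatic cells, against 36.5, 70.2 and 46.4 CPM in dividing cells (adjusted p = 0.0189), and the Axl and Mertk ligand Gas6 had 609, 562 and 511 CPM against 382, 356 and 281 CPM (adjusted p = 0.0243). Neither of the last 2 overlapped between classes.

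Of 15 chemokines and cytokines, 0 passed in either direction, with 1183 of all genes at an unadjusted p under 0.05. Log2 folds were positive for 11 and negative for 4. Ccl6 had 179, 138 and 113 CPM in homeostatic cells, against 115, 91.6 and 88.3 CPM in dividing cells (adjusted p = 0.833 in limma). In border macrophages, which share the spread of the fit, Ccl6 was at 23.4 and 240 CPM in libraries 1 and 3. The part of that spread in the 0 calls was not tested. Tnf averaged 13.4 ± 1.73 CPM in homeostatic cells and 25.2 ± 3.61 CPM in dividing cells (SD, n = 3 each), without overlap and with an adjusted p of 0.208. Of the 20 microglia markers Tyrobp, the signalling adaptor of Trem2, was the single call, at 2493, 2573 and 2669 CPM in homeostatic cells against 1832, 1852 and 2138 CPM in dividing cells. Leaving out library 1, 2 or 3 gave 967, 184 or 1257 calls. Without library 1 or 3, border macrophages were left with 1 library and added nothing to the shared spread. The count of calls therefore rests on which libraries enter and on which classes feed the spread, which cannot be told apart here.

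**Figure D5:**
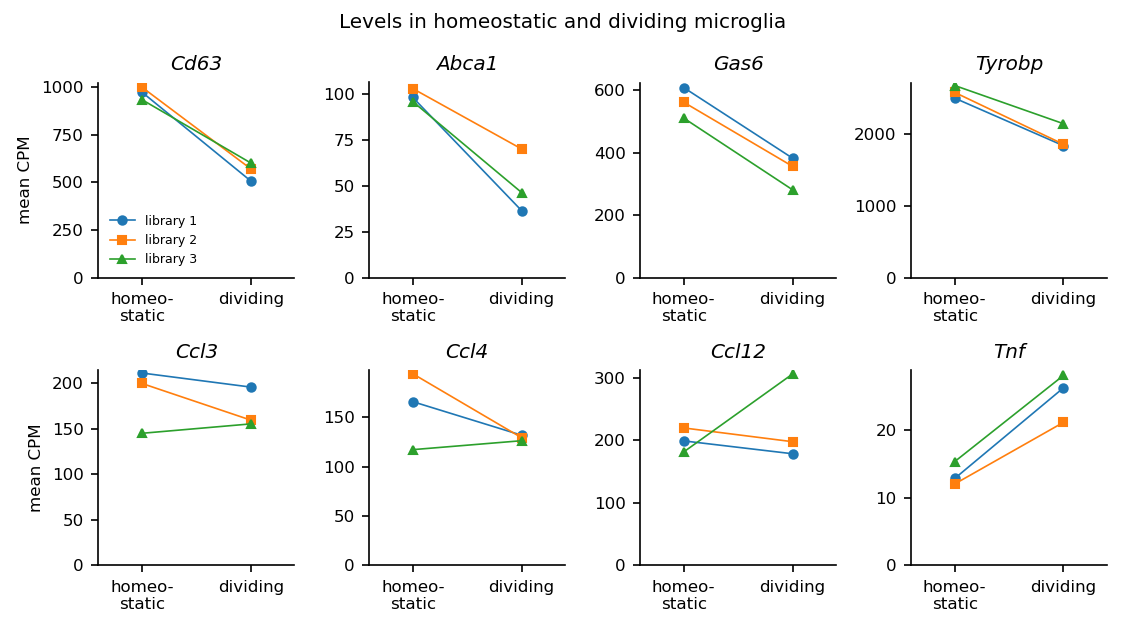
Mean level (vertical axis, CPM) of 8 genes in homeostatic (left) and dividing (right) microglia, with 1 line a library. Cd63, Abca1, Gas6 and Tyrobp are higher in homeostatic cells of every library, Ccl3, Ccl4 and Ccl12 have no common direction, and Tnf is lower in homeostatic cells of every library without passing the test.

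Border macrophages, the macrophages of meninges and vessel sheaths, entered the comparison from libraries 1 and 3, with 21 and 66 cells. Homeostatic microglia differed from them in 562 of 8316 genes (6.76%), 277 higher (3.33%) and 285 lower (3.43%), while centring every mean on its median gene gave 393 and 258, and means of the deposited logs gave 120 and 341. Chemokines split by gene. Ccl4 had 166, 194 and 117 CPM in homeostatic microglia of libraries 1, 2 and 3, against 0 and 26.2 CPM in border macrophages of libraries 1 and 3 (log2 difference 3.05 ± 0.45, adjusted p = 0.00882). Ccl3, Il1a and Csf1 were also higher in microglia, and passed in 8 of 13, 10 of 12 and 8 of 12 alternatives. Ccl3 was above 0 in 31.5%, 30.0% and 28.9% of homeostatic cells of libraries 1, 2 and 3, against 19.0%, 31.6% and 9.09% of border macrophages. The 19 border macrophages of library 2, left out of the test, thus did not have the lower share. Ccl7, a chemokine for monocytes, had 0.520, 4.35 and 0.288 CPM in homeostatic microglia, against 208 and 298 CPM in border macrophages (log2 difference -4.59 ± 0.24), and Ccl2 and Ccl24 were lower as well, so that 4 of 15 listed genes were higher and 3 lower.

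Beyond chemokines, Siglech, a sialic acid binding receptor, had 618, 591 and 714 CPM in homeostatic microglia, against 157 and 170 CPM in border macrophages (log2 difference 1.97 ± 0.11, adjusted p = 8.51e-05). Adora3, an adenosine receptor, had 50.7, 54.5 and 70.0 CPM in homeostatic microglia, against 0 and 2.27 CPM in border macrophages (adjusted p = 0.00107). Of 20 microglia markers 12 were higher in homeostatic microglia and 1, Fcer1g, was lower. The TGF-beta receptor chains moved apart, with Tgfbr1 higher (log2 difference 1.28) and Tgfbr2 lower (-0.90) in microglia. Leaving out library 1, 2 or 3 gave 2089, 142 or 3199 calls, and with 1 border library left its spread is assumed to be that of the other classes.

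Cells with both Spp1 and Gpnmb, a phagocytic state, numbered 14, 62 and 1 in libraries 1, 2 and 3, too few for a test under the minimum of 20 cells in 2 libraries. Their values in libraries 1 and 2 are a description. Ccl9 stood at 142 and 163 CPM in homeostatic microglia, against 1364 and 1198 CPM in Spp1 and Gpnmb cells, and Ccl6 at 179 and 138 CPM against 850 and 942 CPM. Ccl12 ran the other way, at 199 and 220 CPM in homeostatic microglia against 42.9 and 65.1 CPM. The mean level of Ccl3 was near in both, at 211 and 200 CPM in homeostatic microglia against 223 and 153 CPM. Its detection was not, with 92 of 292 and 114 of 380 homeostatic cells, against 8 of 14 and 31 of 62. Ccl4 was detected in 57 of 292 and 59 of 380 homeostatic cells, against 0 of 14 and 6 of 62. Either gene was above 0 in 38.4% and 35.3% of homeostatic cells, against 57.1% and 54.8% of Spp1 and Gpnmb cells.

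Levels within homeostatic microglia were close between libraries for most genes: over 2942 genes that averaged 50 CPM or more, the ratio of the highest to the lowest library had a median of 1.15, and 17 genes reached a ratio of 2. Cd74, the invariant chain of MHC class II, stood apart, with 21.1, 22.8 and 412 CPM in libraries 1, 2 and 3 and detection in 11.0%, 10.0% and 28.2% of members. Cells with none of the markers had it in 0.551%, 1.41% and 1.55% of cases. Library 3 was also the highest in dividing microglia, with 14.2, 11.7 and 352 CPM in libraries 1, 2 and 3, and the class II gene H2-Aa stayed under 1 CPM in members of every library. Spp1, a gene of the selection rule, had 64.7, 346 and 29.6 CPM in members, and 63.0, 396 and 2.92 CPM in all cells outside the 4 macrophage and microglia classes, in the same order of libraries. The haemoglobin genes Hbb-bs, Hbb-bt, Hba-a1 and Hba-a2 and the vessel genes Cldn5, Myl9 and Rgs5 were also among the 10 genes with the largest ratios, and the heat shock gene Hspa1a had 103, 165 and 257 CPM. The interferon gene Ifi27l2a had 63.7, 49.3 and 133 CPM, highest in library 3, while at least 3 of 17 interferon response genes were detected in 8.90%, 6.32% and 10.9% of members, against 5.74%, 7.18% and 7.56% of cells with none of the markers. No group differs between these libraries in the labels, and the cause was not tested.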

How the data were processed

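Single-cell RNA libraries of 3 exposed cortex samples were analysed from 1 deposited table of natural log values per gene and cell. The mouse build mm10 and the tools Seurat, Cell Ranger and CASAVA 1.8 are named in the submitters' processing notes, and how depth was corrected is not given in the sources used here. Undoing the natural log of the deposited values gave whole numbers for all 34958786 values above 0 (tolerance 1e-06). CPM values were computed from the deposited values by scaling each cell to 1000000 and averaging cells by class and library, with at least 20 cells. Differences were tested with limma 3.58.1 in R 4.3.3 on log2(mean + 10 CPM), blocking on library and letting the variance follow the mean, over genes that averaged 10 CPM or more. The 15 rule genes were left out of the counts between classes. Both Ccl sets, and homeostatic and dividing microglia, came from every library, while border macrophages entered from libraries 1 and 3. The comparisons between classes came from 1 fit over those classes with a library term, and the classes shared its spread. Doublets were called with Scrublet in scanpy 1.11.5. Named genes were, among calls of 1 sign in every library, the 2 largest of each list and the 10 largest in each direction (8 between classes), plus the chemokine list and the 10 genes that varied most between libraries; others are list counts or descriptions. The members and lists were chosen with earlier results of these data known. Some genes are not reported here.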

Additional observations from a re-analysis of the deposited data

How the results depend on the processing

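Between Ccl-positive and Ccl-negative microglia 357 genes passed, and 504, of which 341 were shared with the 357, passed with no filter on low values. The count was 32 (28 shared) in members with all 3 markers, 203 (173 shared) with both chemokines required, 96 (77 shared) in cells with a middle number of detected genes and, in the setting added after the data were seen, 16 (14 shared) in members with few markers of other cells; the cause was not tested beyond the marker sums given above. Leaving out 1 library gave 227 to 360. With no replicate block, that is without the library term, 244 passed, against 433 between homeostatic and dividing microglia and 821 between homeostatic microglia and border macrophages. Homeostatic against dividing microglia gave 184 to 1257 calls when 1 library was left out, 225 with a minimum of 10 cells and 207 among genes of at least 50 CPM. In that comparison the median log2 fold of all genes was 0.101 after centring and -0.042 without it, with 67 higher and 279 lower calls, and all 401 genes kept their sign. Against border macrophages, leaving out 1 library gave 142 to 3199, a minimum of 10 cells 255 (98 higher, 157 lower) and no filter on low values 276 (97 higher, 179 lower). The Ccl-positive share was 39.0% in members with all 3 markers, 32.5% after thinning, 10.3% with both chemokines and 14.2% at 3 or more counts. Of 46 named genes in the Ccl comparison, S100a6 turned to 0.23 and Rgs5 to 0.36 and Vtn to 0.43 with all 3 markers, S100a6 to 0.15 in cells with a middle number of detected genes, and Rgs5 to 0.11 with few markers of other cells. No test of the Spp1 and Gpnmb cells was possible at 20 cells; at 10 cells, 1886 of 8205 genes passed. Depth before correction is unknown, which limits what a value of 0 shows.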

Other observations

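At least 1 of Il1b, Il6 and Tnf was detected in 6.16%, 6.32% and 7.09% of homeostatic microglia in libraries 1, 2 and 3, against 0.175%, 0.0987% and 0.161% of cells with none of the 3 markers. At least 4 of the replication genes Mcm2 to Mcm7 and Pcna were detected in 30.1%, 24.7% and 18.0% of homeostatic microglia, although cells with 2 or more of the division genes had been set aside, against 14.6%, 12.4% and 10.4% of cells with none of the markers. Hspa1a was detected in 19.9%, 23.9% and 31.6% of homeostatic microglia, against 2.58%, 2.69% and 3.26% of cells with none of the markers. These genes were chosen after their values were seen, and no test was run.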
